A study of Homo sapiens with 8 samples.

Results

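The hnRNPs and other alternative splicing regulators were examined here as a group of 45 genes: the hnRNP family with RALY, the PTBP, KH domain, TIA, CELF, MBNL, RBFOX2, ESRP and TRA2 proteins, and the CLK and SRPK kinases. The members were taken by gene symbol, through the RefSeq accession printed for each probe, and all 45 had at least 1 probe among the 20503 genes that could be named on the arrays. Total RNA of 2 epithelial ovarian cancer cell lines, MDAH and SKOV3, was hybridised in 4 groups of 2 arrays: MDAH controls, MDAH cells silenced for SFPQ, SKOV3 controls and SKOV3 cells silenced for SFPQ. In each line 1 silenced array held cells carrying sh-SFPQ#2 and the other held cells carrying sh-SFPQ#3, both delivered by lentivirus. The sample labels call every control a control shRNA sample, whereas the study's methods list a parental and a control shRNA sample, so "control" means here only cells that were not silenced. No drug treatment is named for any array. Each line is a single cell line and each shRNA was measured on 1 array per line, so the p values measure the spread between these arrays, and differences between shRNAs are part of the spread within the silenced groups.

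hnRNPs coat nascent RNA, and many of them act as repressors or activators at splice sites in a way that depends on where they bind. MBNL and CELF proteins are sequence-specific regulators known for opposing actions on developmental splicing, ESRP1 and ESRP2 drive the epithelial splicing programme, and the PTBP proteins bind pyrimidine tracts. CLK and SRPK kinases phosphorylate the serine and arginine rich domains of SR proteins and so set where those proteins sit and how active they are. SFPQ, the silenced gene, is a nuclear RNA-binding protein of the paraspeckle family that also takes part in splicing. Arrays of this kind measure the RNA level of the regulators and not the splicing of their targets.

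Values are log2 signals minus the 75th percentile of the array, so a value of 0 is the brightness that 75% of the probes do not exceed, and levels are compared only within a probe. The 75th percentile signal lay between 244 and 496 on the 8 arrays, with the lowest on the MDAH sh-SFPQ#3 array, and 47.7% to 57.0% of the probes were well above background. All 45 members were tested, and 43 of them were well above background on all 8 arrays, the exceptions being CELF2 and ESRP1 in SKOV3 cells. The targeted gene SFPQ read 3.64 and 3.91 on the MDAH control arrays against 2.45 and 2.10 on the silenced ones, and 4.84 and 4.66 against 3.01 and 2.48 in SKOV3 cells. SFPQ fell in MDAH cells (log2 fold change -1.50, SE 0.23, limma adjusted p = 0.0328) and in SKOV3 cells (-2.01, SE 0.23, limma adjusted p = 0.0299). Its value stayed negative whichever array was left out, but the adjusted p rose to as much as 0.218 in MDAH cells (without MDAH control 1) and 0.118 in SKOV3 cells (without SKOV3 control 1). By the methods' t-test SFPQ did not pass after adjustment, with adjusted p values of 0.386 for the MDAH and 0.429 for the SKOV3 comparison. Of 10 epithelial and ovarian markers 7 were well above background on every array, EPCAM, KRT8 and PAX8 among them. CDH1 was not in the SKOV3 controls, WT1 was not on any SKOV3 array, and MUC16 was so only on the SKOV3 silenced arrays. Of the markers of other cell types 1 of 6 for fibroblasts (COL1A1), 3 of 5 for leukocytes (PTPRC, CD79A and CD14) and 1 of 4 for endothelium (CDH5) were well above background on every array, and COL3A1, LUM, PDGFRB and CD3E on none. With silencing COL1A1 rose in the average (1.18, SE 0.20, limma adjusted p = 0.0296) and DCN, the other fibroblast marker tested, had 1.2 (adjusted p = 0.0664). DCN was not well above background on any MDAH array. The epithelial list had a median of -0.13 in MDAH cells (4 of 10 positive) and 0.58 in SKOV3 cells (8 of 10 positive). In the average MUC16 alone was past the threshold, but it entered the test only through the SKOV3 silenced arrays. The MDAH part of its average compared background with background, so no rise in both lines is read from it. The part of these markers in the results was not tested.

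The first question was which splicing regulators differed in RNA level after SFPQ silencing. In MDAH cells 0 of the 45 members passed an adjusted p of 0.05 in limma, against 2.03% of the 15552 genes tested (0.418% higher and 1.61% lower), and in SKOV3 cells again 0 passed, against 0.997% of the genes (0.424% higher and 0.572% lower). Averaged over both lines 1 member, MBNL1, passed, against 5.66% of the genes (2.02% higher and 3.64% lower). At an unadjusted p under 0.05 the counts were 3 members in MDAH cells (23.1% of all genes), 14 in SKOV3 cells (19.5% of all genes) and 7 in the average (26.4% of all genes). The median log2 fold change of the members was 0.11 in MDAH cells beside 0.10 over all genes tested, and -0.31 in SKOV3 cells beside -0.04 over all genes. In MDAH cells 29 of 45 members (64.4%) had a positive value, beside 59.8% of all genes, and this count was 34 under median centring and 23 under quantile normalization and in the deposited values. In SKOV3 cells 36 of 45 had a negative value, beside 54.0% of all genes. The silenced arrays lay above both controls for 18 members in MDAH cells (35.6% of all genes) and below both for 5 (21.4%), while in SKOV3 cells they lay above both for 4 (25.9%) and below both for 28 (32.1%). Most members were thus below both controls in SKOV3 cells, whereas in MDAH cells the silenced and control arrays overlapped for 22. The MDAH counts depended on the scaling, with 21 above and 2 below under median centring, 12 and 9 with normexp, and 11 and 11 under quantile normalization and in the deposited values. Over all genes the MDAH counts moved too. They were 7105 above and 2225 below of 15546 under median centring, and 4704 and 3686 with normexp. Under quantile normalization they were 4841 and 3692, and in the deposited values 4835 and 3696 of 15552. In SKOV3 cells the 4 other scalings gave 4 to 7 members above and 24 to 28 below. Over all genes they gave 3712 to 4625 above and 4008 to 5007 below.

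**Figure D1:**
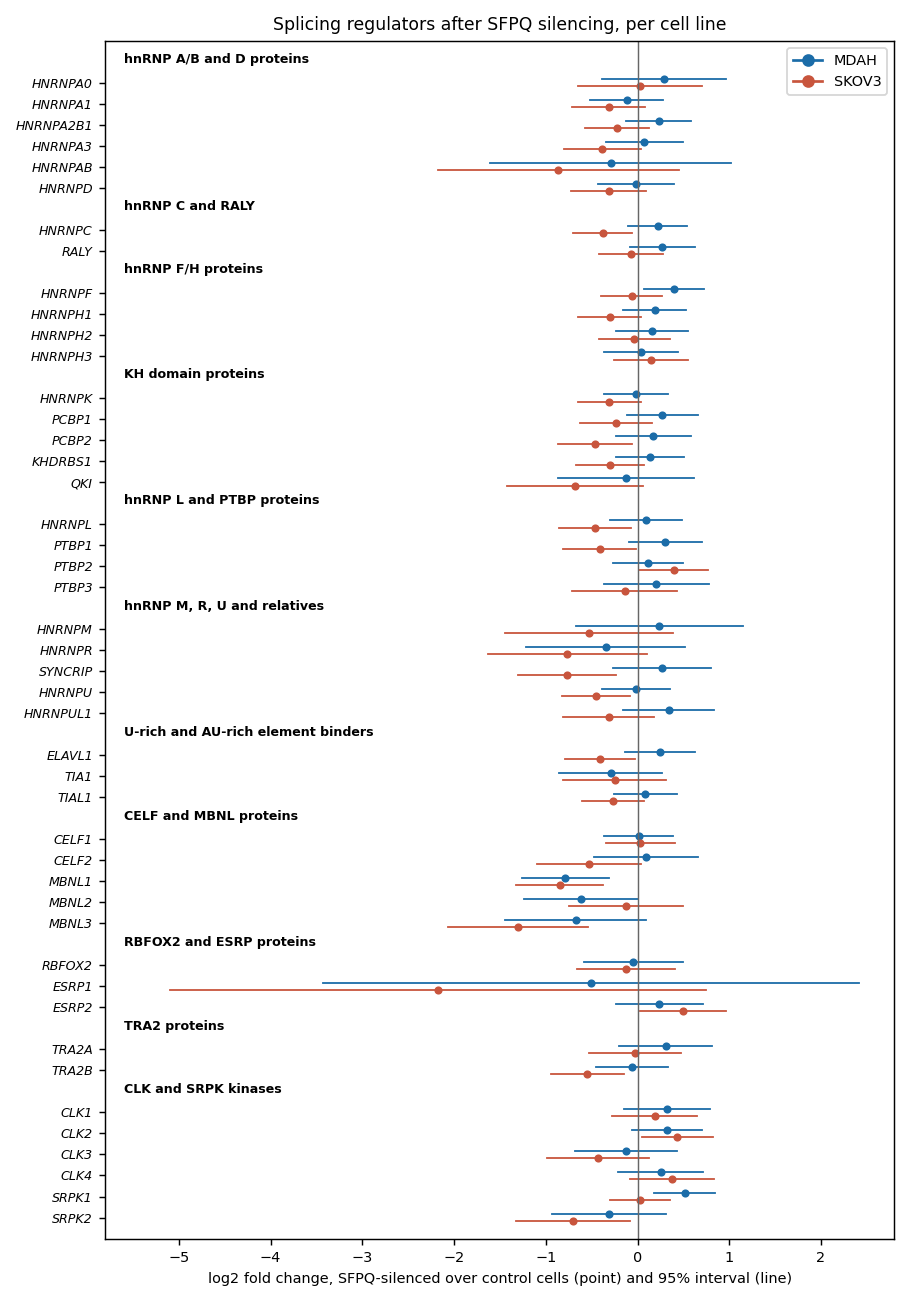
Log2 fold change of SFPQ-silenced over control cells for each of the 45 members, grouped by role, in MDAH (blue) and SKOV3 (red), with the 95% interval of the fit as a line; the vertical line marks no difference. The SKOV3 points lie left of 0 for 36 members and the MDAH points right of 0 for 29, with MBNL1, MBNL2 and MBNL3 left of 0 in both lines and a wide interval for ESRP1.

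The MBNL proteins, which control exon inclusion in muscle and many other cells, had the 3 lowest values of the members in MDAH cells. MBNL3 and MBNL1 also had the lowest averages over both lines apart from ESRP1. MBNL1 read 1.79 and 1.87 on the MDAH controls against 1.13 and 0.96 after silencing, and 3.61 and 3.51 on the SKOV3 controls against 2.96 and 2.46. The silenced and control arrays did not overlap in either line, and MBNL1 fell in the average of both lines by 1.76-fold (log2 fold change -0.82, 95% interval -1.15 to -0.48, limma adjusted p = 0.0289). Within a single line the values were -0.79 in MDAH cells (SE 0.20, adjusted p = 0.0961) and -0.85 in SKOV3 cells (SE 0.20, adjusted p = 0.106), and they differed between lines by 0.06 (SE 0.28, adjusted p = 0.933). The average stayed negative when any of the 8 arrays was left out, but it passed the threshold in only 2 of those 8 fits. Without MDAH control 1, MDAH control 2, MDAH sh-SFPQ#3, SKOV3 control 1, SKOV3 control 2 or SKOV3 sh-SFPQ#3 the adjusted p was 0.132, 0.117, 0.0673, 0.0944, 0.0775 and 0.0519 in turn. With each array centred on its median the adjusted p was 0.0513, and with no filter on dim probes 0.0551.

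MBNL3 read -0.65 and -0.74 on the MDAH controls against -1.46 and -1.28 after silencing, and -1.24 and -1.65 on the SKOV3 controls against -2.26 and -3.23. The arrays did not overlap in either line, and the average of -0.99 (SE 0.23, limma adjusted p = 0.0563) missed the threshold. With normexp the average was -0.54 and passed (adjusted p = 0.0360), and it also passed with only probes well above background on all arrays (0.0356), with the intensity trend (0.0410) and without SKOV3 sh-SFPQ#2 (0.0155). MBNL2 read 2.95 and 2.63 against 2.54 and 1.80 in MDAH cells, a log2 fold change of -0.62 (SE 0.26, adjusted p = 0.220, or -0.25 without MDAH sh-SFPQ#3 and -0.98 without MDAH sh-SFPQ#2), and 2.97 and 2.96 against 2.73 and 2.95 in SKOV3 cells, where the value was -0.13 (SE 0.26, adjusted p = 0.810). A dimmer MBNL2 probe gave -0.57 in MDAH cells, and overlapped its controls in SKOV3 cells (-0.04). On the brightest probes the silenced arrays lay below both controls in each line for 4 members, MBNL1, MBNL2, MBNL3 and HNRNPA1, against 10.3% of all genes. Under each of the other scalings tried (median centring, quantile normalization, normexp with quantile normalization, and the deposited log2 values) this held for MBNL1 and MBNL3, but not for MBNL2 or HNRNPA1. Other members joined them, HNRNPK, HNRNPR, HNRNPU, QKI and TRA2B under quantile normalization and in the deposited values, and HNRNPK, HNRNPU, QKI, TIA1 and TRA2B with normexp.

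CELF1, which binds GU-rich elements, had 0.01 in MDAH cells (95% interval -0.36 to 0.39) and 0.03 in SKOV3 cells (-0.35 to 0.41) on its brightest probe. A dimmer CELF1 probe, which matches another transcript accession, read 1.62 and 1.82 on the MDAH controls against 2.22 and 2.34 after silencing, with no overlap (0.56, SE 0.15, limma adjusted p = 0.107), and gave -0.04 in SKOV3 cells. The CELF1 value in MDAH cells thus depended on the probe. CELF2, its relative known from brain, heart and lymphoid cells, read -0.02 and -0.39 on the MDAH controls and -0.02 and -0.21 after silencing, so that the groups overlapped. In SKOV3 cells CELF2 was not well above background on any of the 4 arrays.

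**Figure D2:**
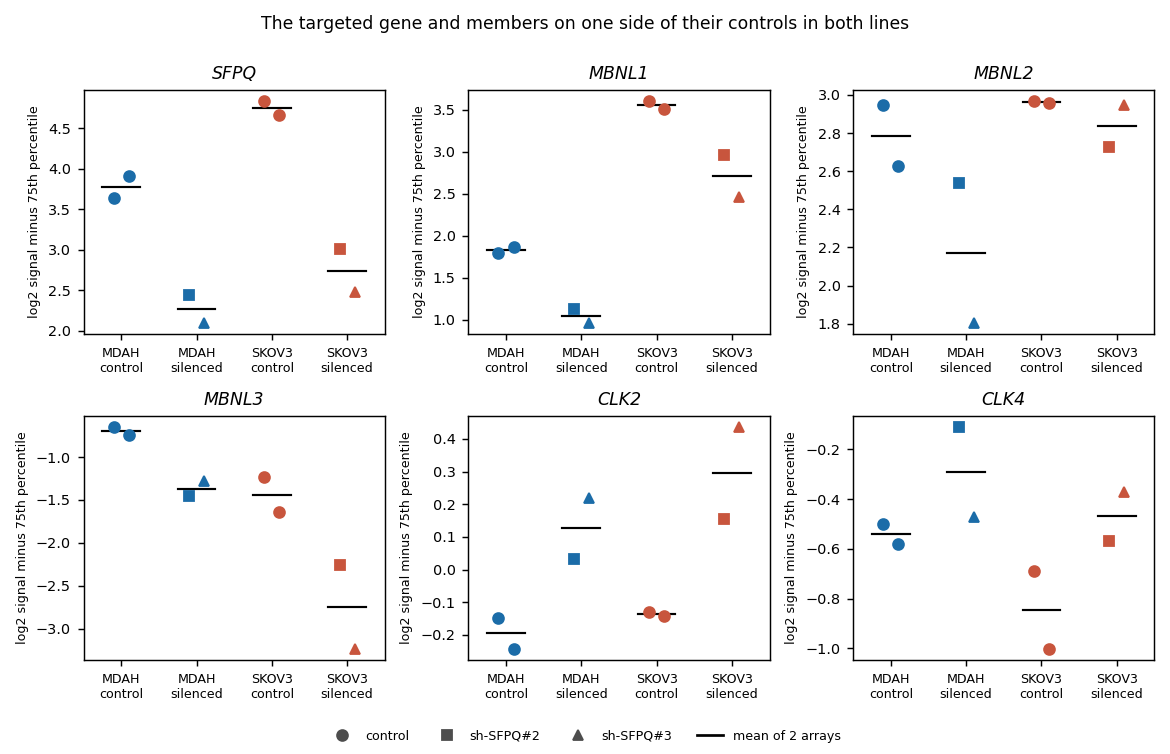
Log2 signal minus the 75th percentile on each array (points; circles controls, squares sh-SFPQ#2, triangles sh-SFPQ#3; black bars the mean of 2 arrays) for SFPQ, the MBNL genes, CLK2 and CLK4, each panel on its own scale. SFPQ, MBNL1, MBNL2 and MBNL3 lie below their controls in both lines, by little for MBNL2 in SKOV3 cells, and CLK2 and CLK4 above them.

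Promoter windows are shown for the 3 MBNL genes and for CLK2 and CLK4, chosen after their values were seen as members on 1 side of the controls in both lines. ESRP2, HNRNPA1 and PTBP2 also lay on 1 side in both, and are not shown. The windows run from 250 bases before to 50 after a transcript start, are 300 bases long and are credited to RefSeq (GRCh38.p14). They were found for 38 of the 45 members, and ELAVL1, ESRP1, ESRP2, HNRNPA1, QKI, RBFOX2 and TRA2A had none. The 5 windows lie at chr3:152268679-152268978 on the plus strand, chr13:97141584-97141883 on the plus strand, chrX:132489986-132490285 on the minus strand, chr1:155273455-155273754 on the minus strand and chr5:178627001-178627300 on the minus strand. They are printed from 5′ to 3′ of the gene, and capitals mark matches on either strand to GGGCGG (the GC box), CCAAT (the CCAAT box), TATAAA (the TATA box) or CACGTG (the E box), with overlapping matches counted.
MBNL1: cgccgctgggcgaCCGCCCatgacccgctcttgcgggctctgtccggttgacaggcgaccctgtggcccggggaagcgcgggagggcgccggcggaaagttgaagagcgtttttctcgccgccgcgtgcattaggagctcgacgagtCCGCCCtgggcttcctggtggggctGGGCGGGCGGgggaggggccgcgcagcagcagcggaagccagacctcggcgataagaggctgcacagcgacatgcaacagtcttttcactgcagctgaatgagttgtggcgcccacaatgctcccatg
MBNL2: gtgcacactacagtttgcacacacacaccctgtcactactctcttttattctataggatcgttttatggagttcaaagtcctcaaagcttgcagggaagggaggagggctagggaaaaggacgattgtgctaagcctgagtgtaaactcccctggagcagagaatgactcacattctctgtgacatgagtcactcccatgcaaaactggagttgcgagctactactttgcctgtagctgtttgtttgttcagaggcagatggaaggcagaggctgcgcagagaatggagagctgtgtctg
MBNL3: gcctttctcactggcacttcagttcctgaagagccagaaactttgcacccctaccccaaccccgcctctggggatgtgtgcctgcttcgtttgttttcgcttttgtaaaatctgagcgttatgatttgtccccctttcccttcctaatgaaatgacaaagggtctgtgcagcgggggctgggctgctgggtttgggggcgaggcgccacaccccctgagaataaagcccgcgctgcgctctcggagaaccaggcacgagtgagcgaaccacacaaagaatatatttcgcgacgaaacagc
CLK2: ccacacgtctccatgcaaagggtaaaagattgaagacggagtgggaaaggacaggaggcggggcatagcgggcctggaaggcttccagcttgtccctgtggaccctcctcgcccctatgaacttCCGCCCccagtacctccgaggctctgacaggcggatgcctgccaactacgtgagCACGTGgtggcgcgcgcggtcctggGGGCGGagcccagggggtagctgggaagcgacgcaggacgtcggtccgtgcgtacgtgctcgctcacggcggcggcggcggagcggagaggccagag
CLK4: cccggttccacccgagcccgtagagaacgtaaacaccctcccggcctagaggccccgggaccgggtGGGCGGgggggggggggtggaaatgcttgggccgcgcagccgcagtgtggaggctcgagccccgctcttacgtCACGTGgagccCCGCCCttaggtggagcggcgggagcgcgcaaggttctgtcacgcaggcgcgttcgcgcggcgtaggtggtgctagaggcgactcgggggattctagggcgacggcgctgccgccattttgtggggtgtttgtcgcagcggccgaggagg
The MBNL1 window held 4 matches to GGGCGG, the CLK2 and CLK4 windows each held 2 matches to GGGCGG and 1 to CACGTG, and the MBNL2 and MBNL3 windows held none of the 4 motifs. The windows also differed in CpG content, with 31 CpG dinucleotides for MBNL1, 4 for MBNL2, 16 for MBNL3, 29 for CLK2 and 36 for CLK4. GGGCGG was found in 76.3% of the 38 members with a window, at 1 window per gene, and in 45% of all 35116 windows. For CACGTG the shares were 26.3% and 7.26%, for CCAAT 34.2% and 34.6%, and for TATAAA 10.5% and 12%. The 35116 windows were not reduced to 1 per gene or to genes on the arrays, so the 2 sets were not chosen alike. The median window held 29 CpG dinucleotides among the members and 14 over all windows. These are letter matches in windows of fixed length, and no binding was measured.

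The kinases that phosphorylate SR proteins did not move as 1 block. CLK1, CLK2 and CLK4 had positive values in both lines and CLK3 and SRPK2 negative ones, and none of the 6 kinases passed the threshold in the fit of the 4 groups. CLK2 read -0.15 and -0.24 on the MDAH controls against 0.03 and 0.22 after silencing, and -0.13 and -0.14 on the SKOV3 controls against 0.16 and 0.44. Its average was 0.38 (SE 0.11, limma adjusted p = 0.0971), the highest of the 45 members. CLK4 read -0.50 and -0.58 against -0.11 and -0.47 in MDAH cells, and -0.69 and -1.0 against -0.57 and -0.37 in SKOV3 cells, with an average of 0.31 (SE 0.14, adjusted p = 0.203). For both genes the silenced arrays lay above both controls in each line, as they did for ESRP2 and PTBP2, which makes 4 members against 12.4% of all genes. CLK2, CLK4 and PTBP2 kept this order under all 4 other scalings, whereas ESRP2 lost it under quantile normalization and in the deposited log2 values. SRPK1 gained it in those same 2 scalings, and HNRNPF in them and with normexp.

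SRPK1, the main cytoplasmic SR protein kinase, read 5.26 and 5.37 on the MDAH controls against 5.8 and 5.85 after silencing, the highest value of the members in MDAH cells (0.51, SE 0.14, limma adjusted p = 0.107). In SKOV3 cells SRPK1 read 5.04 and 5.14 against 5.09 and 5.15, with overlapping groups (0.03, SE 0.14), and the difference between lines was 0.48 (SE 0.19, adjusted p = 0.326). SRPK2 read 1.23 and 0.80 against 0.97 and 0.44 in MDAH cells, and 1.0 and 0.73 against 0.36 and -0.03 in SKOV3 cells. The SRPK2 groups overlapped in MDAH cells and not in SKOV3 cells, and the average was -0.51 (SE 0.18, adjusted p = 0.145).

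Among the A/B and D hnRNPs, abundant RNA-binding proteins that repress many exons, values in MDAH cells ran from -0.29 for HNRNPAB to 0.28 for HNRNPA0, and in SKOV3 cells from -0.86 for HNRNPAB to 0.03 for HNRNPA0. HNRNPA1, the best known exon repressor of the group, read 7.15 and 7.12 against 7.08 and 6.95 in MDAH cells and 7.73 and 7.36 against 7.22 and 7.24 in SKOV3 cells, with an average of -0.22 (SE 0.12, limma adjusted p = 0.293). A dimmer HNRNPA1 probe overlapped its controls in MDAH cells, at 1.67 and 1.22 against 1.61 and 1.28, and gave -0.47 in SKOV3 cells. HNRNPAB was marked by the gap between its silenced arrays: 2.57 and 2.71 on the MDAH controls against 2.94 with sh-SFPQ#2 and 1.75 with sh-SFPQ#3, and 3.20 and 3.23 on the SKOV3 controls against 3.13 and 1.58. In both lines the low array was that with sh-SFPQ#3. HNRNPA3 had 6 probes, and its dimmest probe showed the same order, with 0.12 and -0.40 on the MDAH controls against -0.71 with sh-SFPQ#2 and -2.47 with sh-SFPQ#3, and 0.82 and 0.26 on the SKOV3 controls against -0.13 and -1.63. Its brightest probe read 5.91 and 5.75 on the MDAH silenced arrays and 6.03 and 5.86 on the SKOV3 ones, so the probes of this gene did not report the same size of difference. HNRNPC, which binds uridine tracts and keeps cryptic exons silent, read 6.23 and 6.29 against 6.54 and 6.43 in MDAH cells and 5.76 and 5.77 against 5.41 and 5.36 in SKOV3 cells. Its relative RALY had 0.27 in MDAH cells and -0.07 in SKOV3 cells.

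The F/H hnRNPs, which bind G tracts, all had positive values in MDAH cells, from 0.04 for HNRNPH3 to 0.40 for HNRNPF (SE 0.14, limma adjusted p = 0.165). Under quantile normalization, under normexp and in the deposited values 3 of these 4 stayed positive. In SKOV3 cells the F/H values lay between -0.30 for HNRNPH1 and 0.15 for HNRNPH3. These are values of the brightest probes. The other HNRNPH3 probe read 2.98 and 2.54 on the MDAH controls against 3.64 and 3.10 after silencing (0.61). It gave -0.06 in SKOV3 cells, so the HNRNPH3 values depended on the probe. The KH domain proteins bind C-rich RNA (HNRNPK, PCBP1, PCBP2) or act as signal-dependent splicing regulators (KHDRBS1, QKI). On their brightest probes all were negative in SKOV3 cells, from -0.68 for QKI to -0.23 for PCBP1. In MDAH cells those probes lay between -0.13 and 0.27. A dimmer HNRNPK probe gave 0.41 in MDAH cells and -0.29 in SKOV3 cells. The dimmest PCBP2 probe gave 0.73 in MDAH cells and 0.08 in SKOV3 cells, where another dimmer PCBP2 probe gave -0.47. QKI read 1.34 and 1.2 on the SKOV3 controls against 1.09 on the sh-SFPQ#2 array and 0.09 on the sh-SFPQ#3 array. The dimmer QKI probes gave -0.98 and -0.99 in SKOV3 cells. The probe with -0.98 was well above background on only 6 arrays. It read -4.06 with sh-SFPQ#2 and -4.18 with sh-SFPQ#3 in SKOV3 cells. The lowest signals well above background on those arrays were -4.05 and -4.21, so the size of its difference is uncertain. The brightest QKI probe did not pass the threshold in SKOV3 cells (limma adjusted p = 0.289). Without SKOV3 sh-SFPQ#2 it gave -1.18, in a fit that leaves 1 silenced SKOV3 array.

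HNRNPL, a CA-repeat binder, and the pyrimidine tract protein PTBP1 were lower in SKOV3 cells, at -0.46 (SE 0.17, limma adjusted p = 0.202) and -0.41 (SE 0.17, adjusted p = 0.246). PTBP2, the neuronal counterpart of PTBP1, was higher at 0.39 (SE 0.16, adjusted p = 0.245). The brightest PTBP3 probe had -0.14 (SE 0.24, adjusted p = 0.772) with overlapping groups, and a dimmer PTBP3 probe gave -0.47. None of these genes passed the threshold. PTBP2 read 1.11 and 1.23 against 1.30 and 1.27 in MDAH cells and 1.28 and 1.07 against 1.45 and 1.69 in SKOV3 cells. The 2 PTBP genes that are known as counterparts thus lay on opposite sides of their controls in SKOV3 cells, where PTBP1 read 1.48 and 1.57 against 1.21 and 1.01. In MDAH cells PTBP1 read 0.09 and 0.33 against 0.62 and 0.41.

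Of the hnRNP M, R and U proteins and their relatives, all 5 were negative in SKOV3 cells, from -0.77 for SYNCRIP and HNRNPR to -0.31 for HNRNPUL1. SYNCRIP, which also acts in mRNA translation and decay, read 4.89 and 4.76 on the SKOV3 controls against 4.27 and 3.85 after silencing (-0.77, SE 0.22, limma adjusted p = 0.150), and 2.62 and 3.13 against 3.12 and 3.16 in MDAH cells. The groups of SYNCRIP did not overlap in SKOV3 cells and overlapped in MDAH cells. A dimmer SYNCRIP probe gave -0.51 in SKOV3 cells and -0.13 in MDAH cells, where the brightest probe gave 0.27, so the MDAH direction depended on the probe. HNRNPU, a nuclear matrix and RNA-binding protein, read 4.90 and 5.01 against 4.63 and 4.38 in SKOV3 cells (-0.45, SE 0.16, adjusted p = 0.194), while a dimmer HNRNPU probe gave 0.29 in the average of both lines, so that its direction depends on the probe. TRA2B, an SR-like activator of exon inclusion, read 5.90 and 5.97 against 5.51 and 5.28 in SKOV3 cells (-0.55, SE 0.17, adjusted p = 0.157) and 4.18 and 4.40 against 4.14 and 4.33 in MDAH cells. A dimmer TRA2B probe gave -0.01 in SKOV3 cells and 0.06 in the average, where the brightest gave -0.30. For its paralogue TRA2A the values were 0.31 (MDAH) and -0.03 (SKOV3). Of the binders of U-rich and AU-rich elements, ELAVL1, which stabilises AU-rich messages, had 0.25 in MDAH cells and -0.41 in SKOV3 cells. The stress granule proteins TIA1 and TIAL1 lay between -0.29 and 0.08 on their brightest probes. A dimmer TIA1 probe gave -0.21 in MDAH cells and 0.45 in SKOV3 cells. The brightest gave -0.25 in SKOV3 cells, so the TIA1 direction there depended on the probe.

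Of the 19 members with several probes, all probes had the same sign for 9 with the MDAH contrast, 12 with the SKOV3 contrast and 10 with the average, and in no comparison did 2 probes of a member give opposite signs with both unadjusted p values under 0.05.

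The ESRP genes, which mark epithelial splicing, had values set by the line and, for ESRP1, by a single array. ESRP1 read -1.57 and -1.84 on the MDAH controls against -1.94 and -2.47 after silencing, all well above background. In SKOV3 cells ESRP1 read -1.43 on control 1, and -5.74 on control 2, -6.23 with sh-SFPQ#2 and -5.30 with sh-SFPQ#3, of which only the value of control 1 was well above background. The SKOV3 controls thus differed from each other by 4.31 on the log2 scale, a gap of over 4 that 8 of 15548 genes showed. The fitted change of -2.18 in SKOV3 cells (SE 1.22, limma adjusted p = 0.370) became -0.02 without control 1 and -4.34 (adjusted p = 0.0336) without control 2, so its size was set by which control was used. ESRP2 read 3.39 and 3.68 against 3.79 and 3.75 in MDAH cells, and 1.70 and 1.36 against 1.87 and 2.18 in SKOV3 cells, with an average of 0.37 (SE 0.14, adjusted p = 0.159). RBFOX2, a sequence-specific regulator of tissue splicing, read 0.56 and 0.45 against 0.53 and 0.39 in MDAH cells and 0.55 and 0.56 against 0.75 and 0.11 in SKOV3 cells. The RBFOX2 groups overlapped in both lines, and its average was -0.08 (95% interval -0.46 to 0.30).

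**Figure D3:**
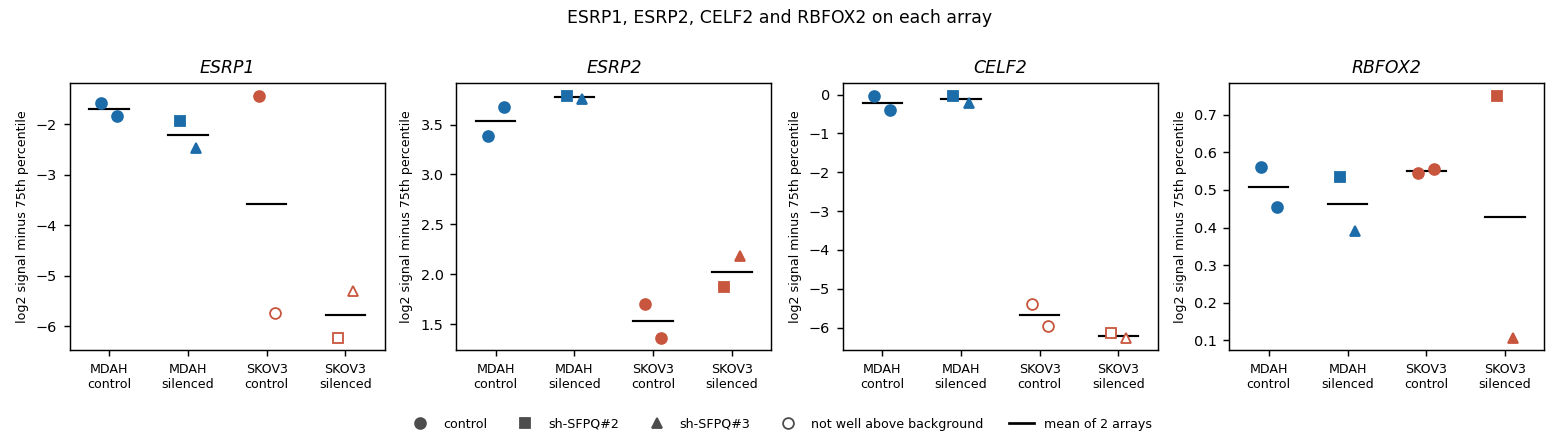
Log2 signal minus the 75th percentile on each array for ESRP1, ESRP2, CELF2 and RBFOX2 (circles controls, squares sh-SFPQ#2, triangles sh-SFPQ#3; open symbols not well above background; black bars the mean of 2 arrays), each panel on its own scale. ESRP1 is well above background on 1 SKOV3 array only, CELF2 on none, and ESRP2 is higher in MDAH than in SKOV3 cells on every array.

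Whether silencing acted differently in the 2 lines was tested with the difference of the log2 fold changes, MDAH minus SKOV3. It was positive for 37 of the 45 members, with a median of 0.42 beside 0.12 over all genes tested, and 0 members passed the threshold in limma against 0.0965% of all genes (0.0386% higher and 0.0579% lower). At an unadjusted p under 0.05 there were 7 members (14.9% of all genes), all positive. The largest tested difference was that of SYNCRIP at 1.03 (SE 0.32, limma adjusted p = 0.263) among members well above background on all arrays, and its dimmer probe gave 0.38. In 8 members the silenced arrays lay above both controls in MDAH cells and below both in SKOV3 cells (8.38% of all genes), and in 0 the reverse held (3.37%). These 8 were ELAVL1, HNRNPA2B1, HNRNPC, HNRNPF, HNRNPH1, HNRNPL, PCBP1 and PTBP1. The number depended on the scaling, with 10 members under median centring and 3 under quantile normalization, normexp and the deposited values. ELAVL1, PCBP1 and PTBP1 were among them each time. Over all genes the number was 1808 of 15546 under median centring, 701 under quantile normalization and 662 with normexp. In the deposited values it was 689 of 15552. These counts rest on the brightest probe of each gene. The dimmer HNRNPA2B1 probe overlapped its controls in MDAH cells (-0.03). In SKOV3 cells the dimmer HNRNPC probes gave 0.09 and -0.38. The median of all genes in MDAH cells moved from 0.10 to 0.21 with median centring, which is a shift of the scale shared by all genes.

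The lines were also compared without silencing. In the comparison of the MDAH with the SKOV3 controls 22 of 45 members passed the threshold in limma, a share of the members below the 57.5% of all genes, with 4 higher in MDAH cells (26.8% of all genes) and 18 lower (30.7%). At an unadjusted p under 0.05 there were 24 members (62.3% of all genes). The MDAH controls lay above both SKOV3 controls for 11 members (40.1% of all genes) and below both for 25 (45.1%). The median difference was -0.41 beside -0.05 over all genes. CELF2 was at least 13.7-fold higher in the MDAH controls than the lowest signal that could be measured in the SKOV3 controls. CELF2 entered the test only through the MDAH groups. Its limma adjusted p (7.77e-06) belongs to the fitted difference from SKOV3 background readings, and not to this bound. ESRP2, at 3.39 and 3.68 against 1.70 and 1.36, was 4.0-fold higher in MDAH cells (log2 difference 2.0, SE 0.20, adjusted p = 0.000229). SYNCRIP, at 2.62 and 3.13 against 4.89 and 4.76, was 3.86-fold lower (-1.95, SE 0.22, adjusted p = 0.000446). The dimmer SYNCRIP probe gave only -0.45 (SE 0.19, adjusted p = 0.0761), so the size depended on the probe.

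MBNL1 (-1.72, SE 0.20, adjusted p = 0.000444), TRA2B (-1.65, SE 0.17, adjusted p = 0.000251) and HNRNPH3 (-1.53, SE 0.17, adjusted p = 0.000376) followed in limma, each with every MDAH control below every SKOV3 control. For the remaining 16 members past the threshold the differences ran from -1.46 for HNRNPK to 0.78 for TRA2A. The RBFOX2, CELF1, PTBP2, CLK1, CLK2 and CLK3 differences lay between -0.06 and 0.04, and none of the 6 kinases passed the threshold. Without MDAH control 1 the count was 11, without MDAH control 2 it was 12, without SKOV3 control 1 it was 13 and without SKOV3 control 2 it was 12, and each of these fits leaves 1 array in a group. These control arrays are also those of the silencing comparisons, so the 2 sets of values are not independent.

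**Figure D4:**
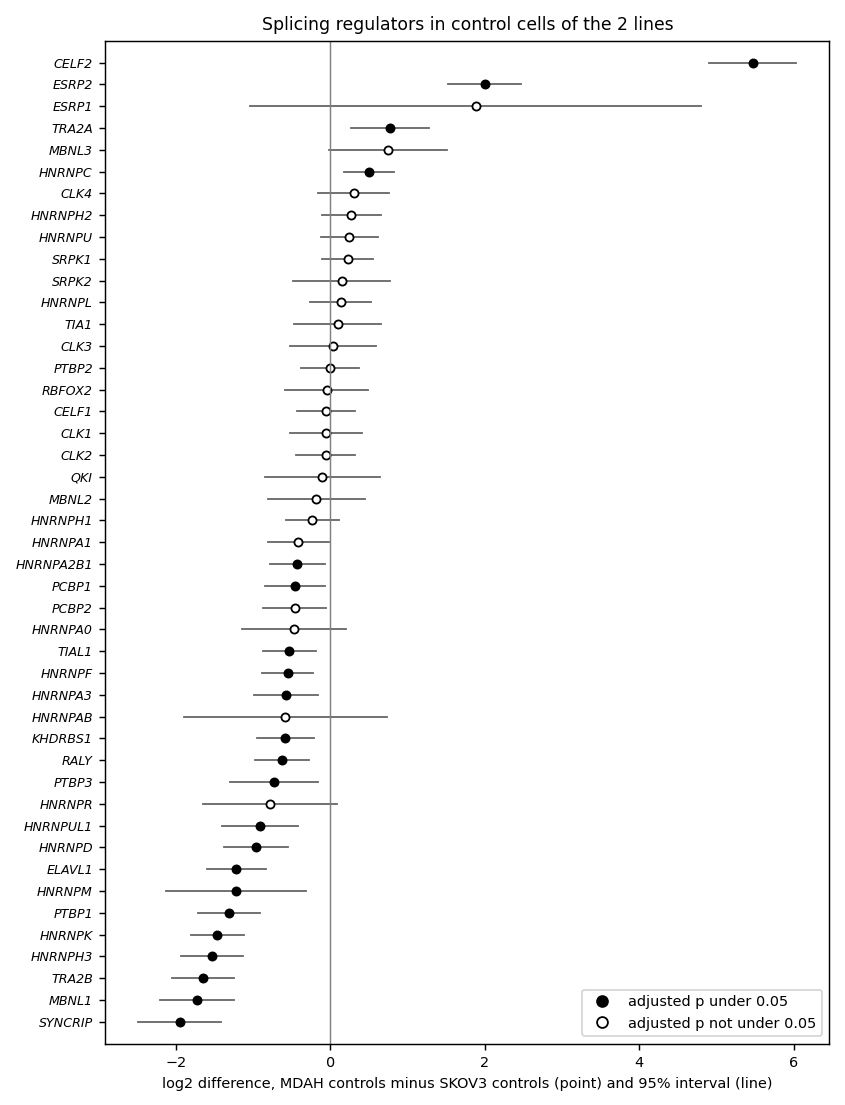
Log2 difference of the MDAH controls minus the SKOV3 controls for the 45 members in order of size, with the 95% interval of the fit as a line; filled points have a limma adjusted p under 0.05. CELF2 and ESRP2 lie far to the right, SYNCRIP, MBNL1, TRA2B and HNRNPH3 to the left, and the SKOV3 level of CELF2 is a background level.

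The 2 shRNAs were compared with 1 array each per line. The median absolute gap of the members was 0.14 between the MDAH controls and 0.19 between the MDAH silenced arrays, and 0.12 and 0.23 in SKOV3 cells, without a test of these gaps. With the sh-SFPQ#3 minus sh-SFPQ#2 contrast over both lines, 0 members passed the threshold in limma, against 0.72% of all genes (0.161% higher and 0.559% lower), and 7 members had an unadjusted p under 0.05 (17.8% of all genes). HNRNPAB, with the values given above, had the largest contrast (-1.37, SE 0.16, limma adjusted p = 0.0502), a value that passed the threshold under median centring, normexp, the stricter filter on dim probes and the intensity trend. The range of its adjusted p over the alternatives that kept all arrays was 0.00271 to 0.145. The dimmest HNRNPA3 probe had -1.63 in the fit over all probes of tested genes (adjusted p = 0.0384).

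HNRNPR read 3.4 and 3.60 on the MDAH controls against 3.55 with sh-SFPQ#2 and 2.76 with sh-SFPQ#3, and 4.33 and 4.24 on the SKOV3 controls against 3.98 and 3.05. Its contrast was -0.86 (SE 0.15, limma adjusted p = 0.0943), and again the lower level was that of sh-SFPQ#3. HNRNPM, an hnRNP that takes part in epithelial to mesenchymal splicing switches, had the opposite order, with 2.97 and 3.98 on the MDAH silenced arrays and 3.60 and 4.27 on the SKOV3 ones (0.84, SE 0.20, adjusted p = 0.143). The sh-SFPQ#3 array lay below the sh-SFPQ#2 array in both lines for 20 members (30.9% of all genes) and above it for 6 (30.3%). SFPQ itself was lower with sh-SFPQ#3 in both lines (-0.44, SE 0.17, adjusted p = 0.294).

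**Figure D5:**
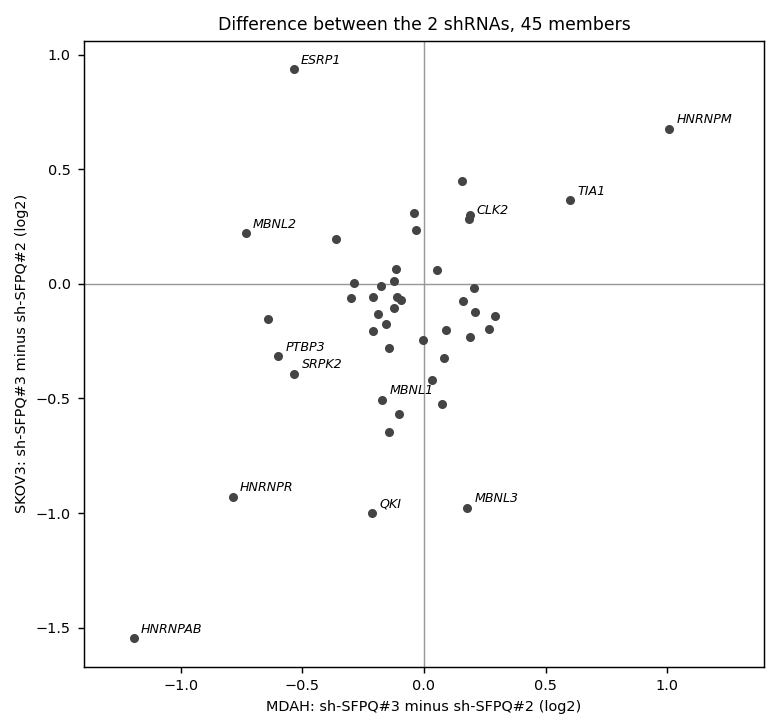
Difference of the sh-SFPQ#3 array minus the sh-SFPQ#2 array in MDAH cells (horizontal) and SKOV3 cells (vertical), on the log2 scale, 1 point per member. HNRNPAB and HNRNPR lie low in both lines, HNRNPM high in both, and MBNL3 and QKI low in SKOV3 cells.

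Other splicing regulators were counted beside the members. All 12 SR proteins were tested, and SRSF4 was the 1 that passed in MDAH cells, at 4.66 and 4.66 on the controls against 3.85 and 3.56 after silencing (-0.96, SE 0.16, limma adjusted p = 0.0379). It also passed in the average (-0.85, SE 0.11, adjusted p = 0.0158), where the median of the SR proteins was -0.08 beside 0.04 over all genes, while in SKOV3 cells 0 of the 12 passed. Of 61 other alternative splicing regulators with a probe 51 were tested, and 3 passed in MDAH cells and in the average, and the medians were 0.15 for the MDAH and -0.05 for the SKOV3 comparison. The 10 on no array above background included the neuronal regulators ELAVL3, ELAVL4, RBFOX1, RBFOX3, CELF3, CELF4 and SRRM4.

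KHDRBS2, a tissue-restricted paralogue of KHDRBS1, read -1.86 and -1.58 on the MDAH controls. It was not well above background on the silenced arrays or in SKOV3 cells, so no fold is given. KHDRBS2 entered the test only through the MDAH controls (limma adjusted p = 0.00154 in MDAH cells, 0.0132 for the difference between lines). A fall could not have been seen in SKOV3 cells, so no difference between lines is read from this gene. NOVA1, a regulator best known from neurons, read 0.58 and 0.41 against -1.43 and -2.29 in MDAH cells (-2.35, SE 0.33, adjusted p = 0.0253) and -0.33 and -0.39 against -1.69 and -2.37 in SKOV3 cells (-1.67, SE 0.33, adjusted p = 0.0790). MSI2, a Musashi RNA-binding protein, rose in MDAH cells from -1.79 and -1.43 to 0.39 and -0.13 (1.73, SE 0.24, adjusted p = 0.0244) and had 0.52 in SKOV3 cells (adjusted p = 0.298). NOVA1 and MSI2 also passed in the average of both lines. KHDRBS2 did too, but the SKOV3 part of its average compared background with background.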

How the data were processed

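The authors scanned 8 single-colour Agilent arrays on 1 slide and deposited, per the file headers, the intensity of each spot after background subtraction and spatial detrending by Feature Extraction (11.5.1.1 in the headers, 10.7.3.1 in the submitters' notes), without normalization between arrays. They also deposited a table of log2 values, quantile-normalized and centred on each probe's median. Here control and outlier spots were left out, log2 intensity was scaled to the 75th percentile of each array, and 28174 of 50599 probes were named through RefSeq accessions. The brightest probe stood for a gene, and a gene entered the test where both arrays of any 1 group had that probe well above background. One limma fit (3.58.1, R 4.3.3) over the 4 groups had 4 residual degrees of freedom and Benjamini-Hochberg adjustment over 15552 genes; the shRNA contrast had 2. Folds against a group not above background were taken against the lowest signal well above it. The members, the lists and the tests were chosen with earlier results of these data known. By rule, SFPQ, members past a threshold, the 3 highest and 3 lowest values per comparison, ESRP1, ESRP2, RBFOX2, CELF2 and MBNL3 were named, and the other members named were picked after their values were seen. The lines sat in different rows of the slide, so line and row cannot be told apart. The fit was tested on simulated data. The number of arrays limits the precision.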

Additional observations from a re-analysis of the deposited data

Results flagged for a closer look

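In 8 members every silenced array moved up from the controls in MDAH cells and down in SKOV3 cells, as read by the brightest probe. The difference of the log2 fold changes, MDAH minus SKOV3, was 0.65 for ELAVL1, 0.46 for HNRNPA2B1, 0.60 for HNRNPC, 0.46 for HNRNPF, 0.49 for HNRNPH1, 0.56 for HNRNPL, 0.50 for PCBP1 and 0.71 for PTBP1. None passed the test of the difference in limma, with adjusted p values from 0.269 for HNRNPC to 0.352 for HNRNPA2B1 and PCBP1. The number of members was 10 under median centring and 3 under quantile normalization, normexp and the deposited values, as given above beside all genes. Across all genes tested 8.38% showed this order. A dimmer HNRNPA2B1 probe did not, with -0.03 in MDAH cells, nor did a dimmer HNRNPC probe, with 0.09 in SKOV3 cells. Groups of 2 arrays allowed no test for a sample that stands apart.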

How the results depend on the processing

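With 2 arrays per group the precision is limited by the number of arrays, and dim probes such as ESRP1 in SKOV3 cells carry background signal. In MDAH cells 0 members passed in limma (3 at an unadjusted p under 0.05, 0 after adjustment by the methods' t-test) and 1, MBNL1, passed with normexp. The median of the members there was 0.22 with median centring, 0.027 with quantile normalization, 0.023 with normexp and 0.025 in the deposited values, and the median in SKOV3 cells was -0.21, -0.21 and -0.20 in the last 3. In the average the count of 1 became 0 with median centring and with no filter on dim probes, and 2 with normexp, with only probes well above background on all arrays, and with the intensity trend, MBNL3 being the second. The fit with a replicate block gave 4 (MBNL1, HNRNPAB, HNRNPR and SRPK2), of which 1 was called without the block. The same number on arrays of different lines went with correlated deviations among the silenced arrays (r = 0.36) but not among the controls (r = 0.08), across genes, so the numbers were not taken to pair the arrays. The count for sh-SFPQ#3 against sh-SFPQ#2 became 1 with median centring and 3 with normexp, the stricter filter and the intensity trend. Leaving out each array in turn gave 0 to 3 members in SKOV3 cells, 0 to 3 in the average, 11 to 23 between the controls, and a median of 0.035 to 0.14 in MDAH cells. The 3 in SKOV3 cells came without SKOV3 sh-SFPQ#2 and the 1 without SKOV3 control 2. RBFOX2 in MDAH cells turned to 0.067 with median centring, and between the controls to 0.00048 with quantile normalization, 0.0058 with normexp and 0.0014 in the deposited values. With single arrays left out RBFOX2 ran from -0.12 to 0.028 in MDAH cells (positive without MDAH control 1 or MDAH sh-SFPQ#3), from -0.45 to 0.20 in SKOV3 cells and from -0.25 to 0.078 in the average (both positive without SKOV3 sh-SFPQ#3), and from -0.098 to 0.010 between the controls (positive without MDAH control 2). CELF2 in MDAH cells ran from -0.094 to 0.28 (negative without MDAH control 2 or MDAH sh-SFPQ#2), and ESRP1 between the controls from -0.27 to 4.04 (negative without SKOV3 control 2). The cause was not tested.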
